A study of Rattus norvegicus with 44 samples.

Results

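Pvalb, Sst, Npy, Vip, Cck, Reln, Nos1 and Tac1 are genes by which classes of GABAergic interneuron are told apart in the hippocampus. They were chosen by name, and all 8 were found among the 18347 gene identifiers of the deposited expression table and were among the 15598 genes tested. The data come from 44 male F344 rats, each with 1 poly(A)-selected RNA library made from the dentate gyrus (DG) of 1 hemisphere. The YNG group (n = 10) held rats 6 months of age that received vehicle. Older rats given vehicle (AV, n = 12), the BCL-2 family inhibitor ABT-263 (AA, n = 11) or dasatinib, a kinase inhibitor, with the flavonoid quercetin (ADQ, n = 11) were 12 months old at the start and about 18 months old when tissue was taken. ABT-263 was given at 12 mg/kg, dasatinib at 1.2 mg/kg and quercetin at 12 mg/kg by oral gavage for 5 days in each of 8 cycles before behavior, with a final round before tissue collection. GEO's labels give only the age, so treatments were read from the deposited sample attributes, by rat name.

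Interneurons of the DG inhibit granule cells at their cell bodies or along their dendrites, and the classes differ in the peptide, calcium-binding protein or enzyme that they make. Basket cells that contain parvalbumin or cholecystokinin contact the cell body, whereas somatostatin cells of the hilus contact distal dendrites and often also contain neuropeptide Y. Cells that contain vasoactive intestinal peptide mostly contact other interneurons, and reelin and neuronal nitric oxide synthase mark other GABAergic cells. Several of these genes are also transcribed outside interneurons, for example Cck in some principal cells and Reln in Cajal-Retzius cells of the molecular layer. In RNA of whole tissue, fewer cells of a class and less RNA per cell cannot be told apart.

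Somatostatin transcription is known to respond to cyclic AMP through the palindrome TGACGTCA, so the start regions of the members were searched for it. Promoters of RefSeq (build GRCr8, 250 bases before to 50 after the start) were matched for 7 of the 8 genes. TGACGTCA, which reads the same on both strands, was present for Sst and Nos1 and in 1.83% of all 33469 promoters. Its first 5 letters, TGACG, searched on both strands and so also counted within TGACGTCA, occurred for Pvalb, Sst, Vip, Nos1 and Tac1 and in 21.2% of all promoters. Neither string was in the windows of Npy and Reln. A match is only a run of letters. The stretches around TGACGTCA, shown because Sst and Nos1 varied in opposite directions between rats as described further on, are printed with these letters in capitals. The Sst stretch lies on the forward strand at chr11:90461508-90461565, with the match starting at base 3 of the transcript. The Nos1 stretch lies on the reverse strand at chr12:44371829-44371886, with the match starting 9 bases before the transcript.
Sst: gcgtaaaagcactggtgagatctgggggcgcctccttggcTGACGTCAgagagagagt
Nos1: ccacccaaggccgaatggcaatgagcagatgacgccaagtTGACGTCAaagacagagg

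Values are the authors' normalized signal, and the totals per rat ranged from 14297964 to 20579982. Differences are given on the log2(value + 1) scale with the standard error of a limma fit of all 4 groups. "Passed" means an unadjusted two-sided p below 0.05, the study's own threshold, and the adjusted p covers all 15598 genes. The rat numbers fall into a lower series (a, 22 rats) and a higher one (b, 22 rats), which differed in the share of the table taken by the transcript AABR07000398.1 (0.422% to 1.60% in a, 1.71% to 11.1% in b). The labels call neither a batch. In series b the AV rats are numbered 4566 to 4572 and the AA and ADQ rats 4031 to 4110. Treatment against AV within series b therefore cannot be told apart from the block of rat numbers. No 2 libraries held identical values.

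Several libraries stood apart. AA rat 3988 held the highest values of Reln (6159), Nos1 (2553) and Pvalb (1110) of its group. The same library had 8 genes typical of the cerebellum at a summed value of 19788, against 247 to 650 in the other 43 rats. Gabra6, a GABA-A receptor subunit of cerebellar granule cells, was at 2538 in rat 3988 and at no more than 6.02 elsewhere, and Pcp2, a Purkinje cell gene, was at 701 and no more than 4.34. This list was chosen after the values were seen, and its part in the values of Reln, Nos1 and Pvalb was not tested. YNG rat V12 had Npy at 2.66, whereas the other 9 YNG rats were at 93.3 or more. AV rat 3989 had the highest Pvalb, Sst, Vip, Cck and Tac1 and the lowest Nos1 of its group, together with the highest Hba-a2 (32848, other rats no more than 10339), a hemoglobin gene of red blood cells. Rat 3989 also had the highest Mbp (128718, next rat 119708), a myelin gene, the second highest Fibcd1 (4691) and the lowest granule cell marker score of AV (9.20). AA rat 4107 had the highest Sst, Cck and Tac1 of its group, together with the highest Wfs1 (23420, next rat 16787) and Fibcd1 (7746, next rat 4691), which mark CA1 pyramidal cells. Results that rest on rats 3988, 3989 or V12 are given with and without them.

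**Figure D1:**
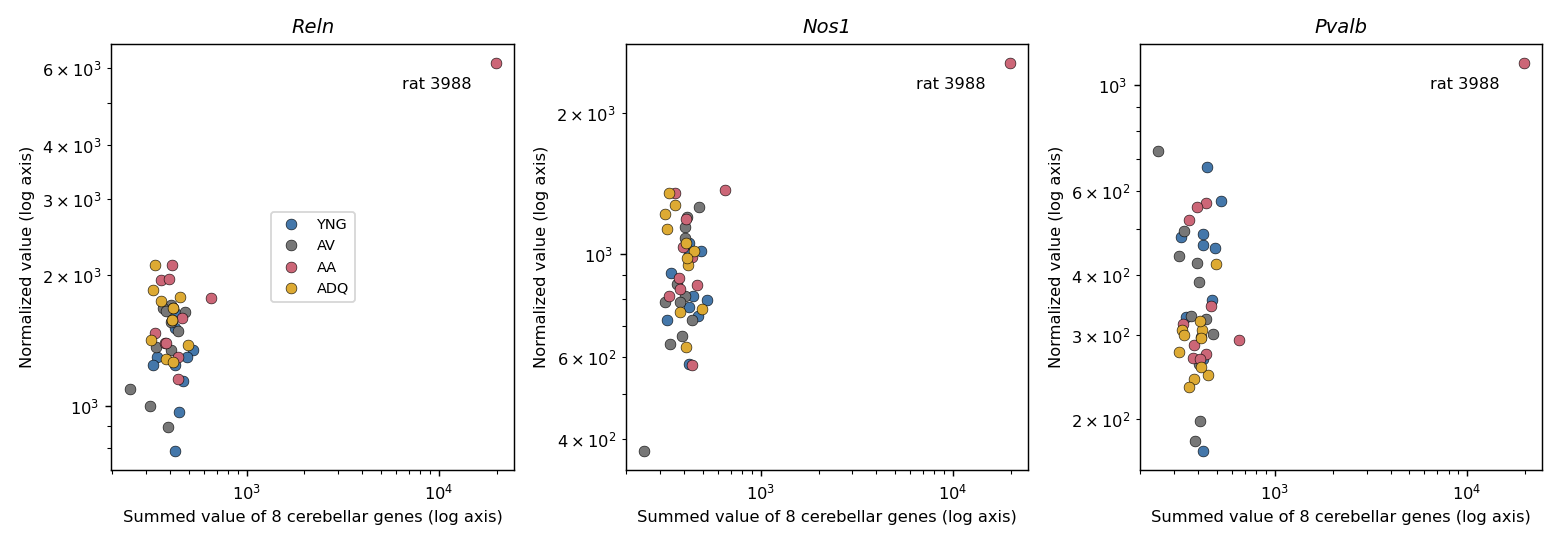
Normalized values of Reln, Nos1 and Pvalb (vertical, log axes) against the summed value of 8 genes typical of the cerebellum (horizontal, log axes), 1 point per rat, colored by group. Rat 3988 of AA lies at 19788 on the horizontal axis, and the other 43 rats lie between 247 and 650.

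Reln encodes reelin, a secreted glycoprotein that acts through lipoprotein receptors on neurons. Its lowest, median and highest values were 787, 1268 and 1639 in YNG and 892, 1525 and 1708 in AV. They were 1155, 1593 and 6159 in AA and 1260, 1576 and 2115 in ADQ. The medians of the 3 older groups lay above that of YNG, but the ranges overlapped, as they did for all 48 pairs of groups over the 8 genes. Reln was higher in older rats of all treatments than in YNG by 0.37 ± 0.14 (SE; p = 0.0118, adjusted p = 0.0639). Without rats 3988, 3989 and V12 the difference was 0.28 (p = 0.00914). AA exceeded YNG by 0.55 ± 0.17 (p = 0.00253, adjusted p = 0.0547), or by 0.37 without rat 3988 (p = 0.00517). Within the series AA and YNG differed by 0.88 in a (p = 0.00293) and by 0.22 in b (p = 0.249), and ADQ and YNG by 0.45 in a (p = 0.102) and 0.26 in b (p = 0.18). ADQ exceeded YNG by 0.37 ± 0.17 (p = 0.0343, adjusted p = 0.145), a call lost without V1, V12, 4006 or 4007 (0.30 to 0.35, p from 0.0528 to 0.0853). AV differed from YNG by 0.19 ± 0.17 (p = 0.264). Within series a the difference of older rats from YNG was 0.56 (p = 0.013), and within series b it was 0.15 (p = 0.348). The series a values of AA and of older rats include rat 3988, 1 of 5 AA rats in that series. The difference between the older-rat differences of the 2 series was -0.41 ± 0.28 (p = 0.155), or -0.28 ± 0.21 without rat 3988 (p = 0.185). AA also exceeded AV by 0.36 ± 0.16 (p = 0.034, adjusted p = 0.999), a call lost without rat 3988 (0.18, p = 0.142) and also without AV rat 3989, 4567 or 4572 or AA rat 4077 (p from 0.0544).

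Sst encodes somatostatin, an inhibitory peptide. Its lowest, median and highest values were 826, 1035 and 1364 in YNG, 723, 1176 and 1764 in AV, 953, 1430 and 1994 in AA and 861, 1192 and 1595 in ADQ. The median of AA was above the highest YNG rat. Sst was higher in older rats of all treatments than in YNG by 0.26 ± 0.11 (p = 0.0165, adjusted p = 0.0775) and in AA than in YNG by 0.42 ± 0.13 (p = 0.00206, adjusted p = 0.0512). The latter was 0.41 without rats 3988, 3989 and V12 (p = 0.00218). Within the series it was 0.20 in a (p = 0.303) and 0.63 in b (p = 0.000788). AV and ADQ differed from YNG by 0.18 ± 0.13 (p = 0.167) and 0.19 ± 0.13 (p = 0.14). AA differed from AV by 0.24 ± 0.12 (p = 0.0535, adjusted p = 0.999, permutation p = 0.0853). This passed at 0.33 without the 3 rats (p = 0.00941) and also when any of 11 single rats was left out (0.24 to 0.30, p from 0.0161). AA and AV differed by 0.07 in series a (p = 0.73) and by 0.39 in series b (p = 0.0138). For older rats against YNG the difference was 0.18 in series a (p = 0.234) and 0.36 in series b (p = 0.0173), and the difference between the 2 was 0.18 ± 0.21 (p = 0.41). Of 10 immediate early genes, which neurons transcribe after activity, 6 were higher in AA than in YNG, beside 12.6% of all genes, and their summed values were 2703 to 5547 in YNG and 3110 to 10286 in AA. Their part in the difference of Sst was not tested.

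Pvalb encodes parvalbumin, the calcium-binding protein of fast-spiking basket cells. Its lowest, median and highest values were 171, 459 and 673 in YNG, 180, 326 and 728 in AV, 266, 316 and 1110 in AA and 233, 294 and 421 in ADQ. ADQ had the narrowest spread, with a coefficient of variation of 18% against 34.8% in YNG, 40.9% in AV and 58.1% in AA. Without rat 3988 the AA value was 34.1%, and without rat 3989 the AV value was 29.9%. ADQ lay below YNG in Pvalb, by -0.47 ± 0.22 (p = 0.0396, adjusted p = 0.156). This was -0.39 without rats 3988, 3989 and V12 (p = 0.0436). The call was lost when any of YNG rats V1, V2, V3, V6, V9 and V12 or ADQ rats 3994, 4031, 4032 and 4074 was left out, with p from 0.0541 to 0.0926 (the latter without V12, -0.39). Within the series it was -0.58 in a (p = 0.0532) and -0.28 in b (p = 0.362). AA exceeded ADQ by 0.44 ± 0.22 (p = 0.0466, adjusted p = 0.981), which was 0.29 without rat 3988 (p = 0.149). That call was lost for any of 11 rats left out, which were also 3985, 3996 and 4107 of AA and 3994, 4007, 4031, 4032, 4074, 4106 and 4110 of ADQ (p from 0.0516). AV and AA differed from YNG by -0.23 ± 0.22 (p = 0.288) and -0.03 ± 0.22 (p = 0.903).

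Nos1 encodes neuronal nitric oxide synthase, which makes a diffusible messenger. Its lowest, median and highest values were 580, 804 and 1054 in YNG, 378, 799 and 1260 in AV, 578, 985 and 2553 in AA and 632, 1013 and 1347 in ADQ. The medians of AA and ADQ were above those of YNG and AV. AA exceeded AV by 0.35 ± 0.17 (p = 0.0452, adjusted p = 0.999), a difference of 0.23 without rat 3988 (p = 0.155). That call was lost for any of 12 rats left out (p from 0.0517), the others being 3890, 3989, 4567, 4568, 4569, 4571 and 4572 of AV and 3984, 3996, 4077 and 4107 of AA. Leaving out any of 8 rats brought AA against YNG past the threshold (0.35 to 0.43, p from 0.0184). Without rat 3988 that difference was 0.22 (p = 0.189), and without rats 3988, 3989 and V12 it was 0.21 (p = 0.16). Against YNG, AA differed by 0.35 ± 0.18 (p = 0.0612), ADQ by 0.25 ± 0.18 (p = 0.167) and AV by -0.01 ± 0.18 (p = 0.961). The series went opposite ways, with older rats, rat 3988 among them, 0.48 above YNG in a (p = 0.0397) and -0.14 from YNG in b (p = 0.297). In YNG the mean of Nos1 was 751 ± 107 (SD, n = 6) in series a and 968 ± 107 (SD, n = 4) in series b.

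Vip encodes vasoactive intestinal peptide, and Cck encodes cholecystokinin. The lowest, median and highest values of Vip were 40.6, 84.6 and 155 in YNG, 43.1, 108 and 366 in AV, 69.5, 120 and 222 in AA and 52.9, 95 and 202 in ADQ. Older rats of all treatments differed from YNG in Vip by 0.37 ± 0.22 (p = 0.0946). With scores of CA1 pyramidal and choroid plexus markers as terms, this was 0.37 (p = 0.0032), and AV, AA and ADQ each passed against YNG (p = 0.0152, p = 0.00974 and p = 0.0174). That fit was 1 of 4 among 14 alternatives in which the call of older rats against YNG changed. Within the series, without these terms, older rats differed from YNG in Vip by 0.59 in a (p = 0.019) and 0.21 in b (p = 0.545). AV differed from YNG by 0.72 in a (p = 0.0182) and 0.14 in b (p = 0.733). The values of Cck were 653, 1187 and 1888 in YNG, 488, 931 and 2360 in AV, 571, 920 and 2666 in AA and 675, 837 and 1243 in ADQ. The medians of Cck were lower in each older group than in YNG, yet the difference of older rats from YNG was -0.25 ± 0.18 (p = 0.167).

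Npy encodes neuropeptide Y, and Tac1 encodes the precursor of substance P. The lowest, median and highest values of Npy were 2.66, 191 and 385 in YNG, 73.9, 198 and 338 in AV, 141, 226 and 498 in AA and 149, 208 and 575 in ADQ. Its difference between older rats and YNG was 0.64 ± 0.36 (p = 0.0823), and without V12 it was 0.06 (p = 0.778). Tac1 was low, with lowest, median and highest values of 6.88, 12.4 and 32 in YNG, 3.85, 12.9 and 48.1 in AV, 7.26, 14.5 and 69.0 in AA and 4.61, 16.5 and 22.4 in ADQ. It differed between older rats and YNG by 0.24 ± 0.29 (p = 0.424). At such values the log2(value + 1) scale understates a change.

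**Figure D2:**
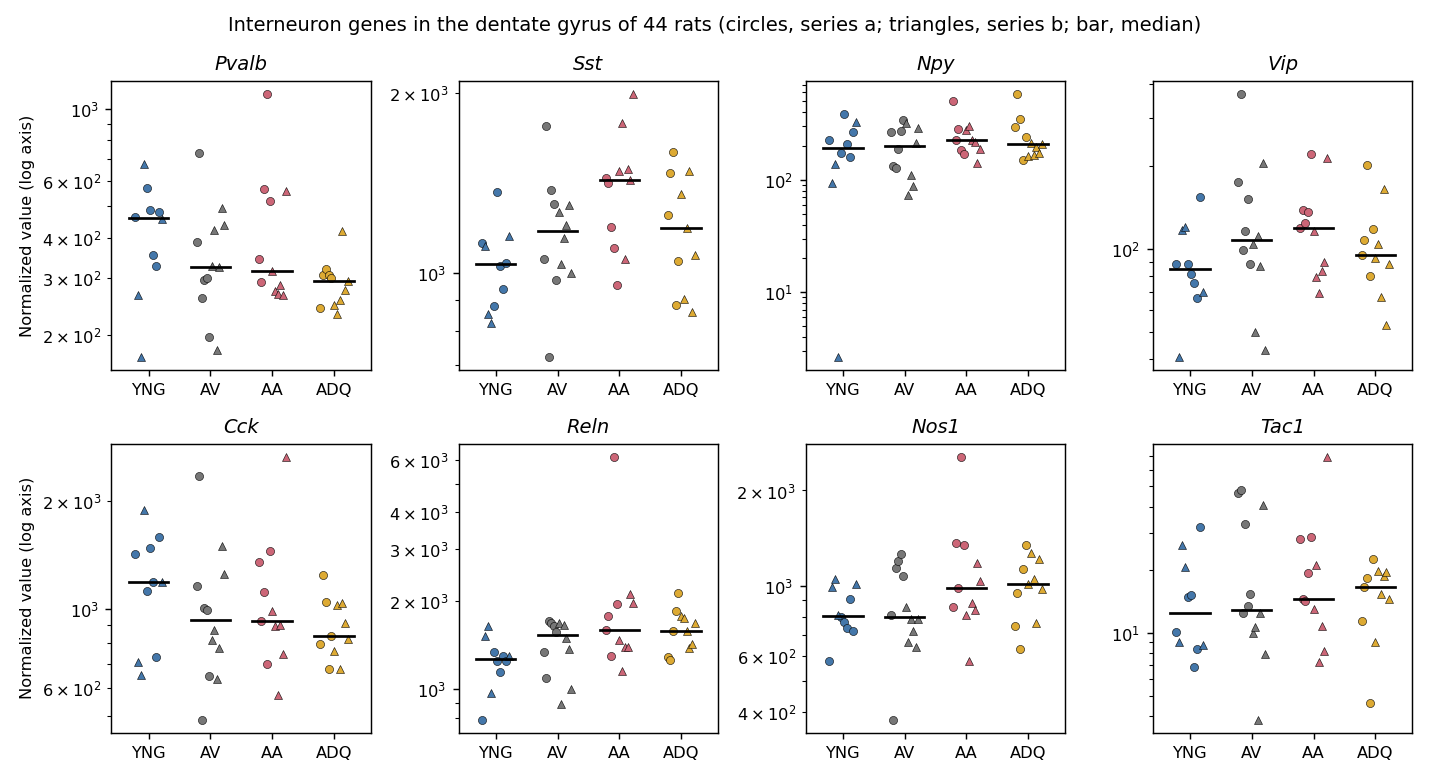
Normalized values of the 8 genes (vertical, log axes) in each of the 44 rats by group, with circles for series a, triangles for series b and a bar at the group median. The groups overlap in every panel, and Npy of YNG rat V12 lies at 2.66, below all other rats.

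Counted over the 8 genes, none passed in AV against YNG, where 21.3% of all genes tested passed. Sst and Reln passed in AA against YNG, 2 of 8 beside 26.6% of all genes. Pvalb (lower) and Reln (higher) passed in ADQ against YNG, 2 of 8 beside 28.1%. Sst and Reln passed in older rats of all treatments against YNG, 2 of 8 beside 32.4%. These shares lie near or below the background. Reln and Nos1 passed in AA against AV, 2 of 8 beside 4.51% of all genes, and neither passed without rat 3988. None passed in ADQ against AV, where 9.32% of all genes passed, and Pvalb passed in AA against ADQ, 1 of 8 beside 4.53%, and not without rat 3988. After adjustment no member passed in limma in any of the 7 comparisons, where 2.35% of all genes passed in AV, 3.85% in AA and 7.08% in ADQ against YNG, 14.9% in older rats of all treatments, and 0% between the older groups. The permutation test of each gene (100000 resamples) gave the same counts at p below 0.05 against YNG and none in AA against AV. The median log2 difference of the 8 genes from YNG was 0.18 in AV, 0.38 in AA and 0.21 in ADQ, beside values within 0.01 of 0 over all genes. Without V12 these medians were 0.07, 0.36 and 0.16, and without rats 3988, 3989 and V12 they were 0.09, 0.28 and 0.16. The comparisons with YNG share the YNG rats.

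**Figure D3:**
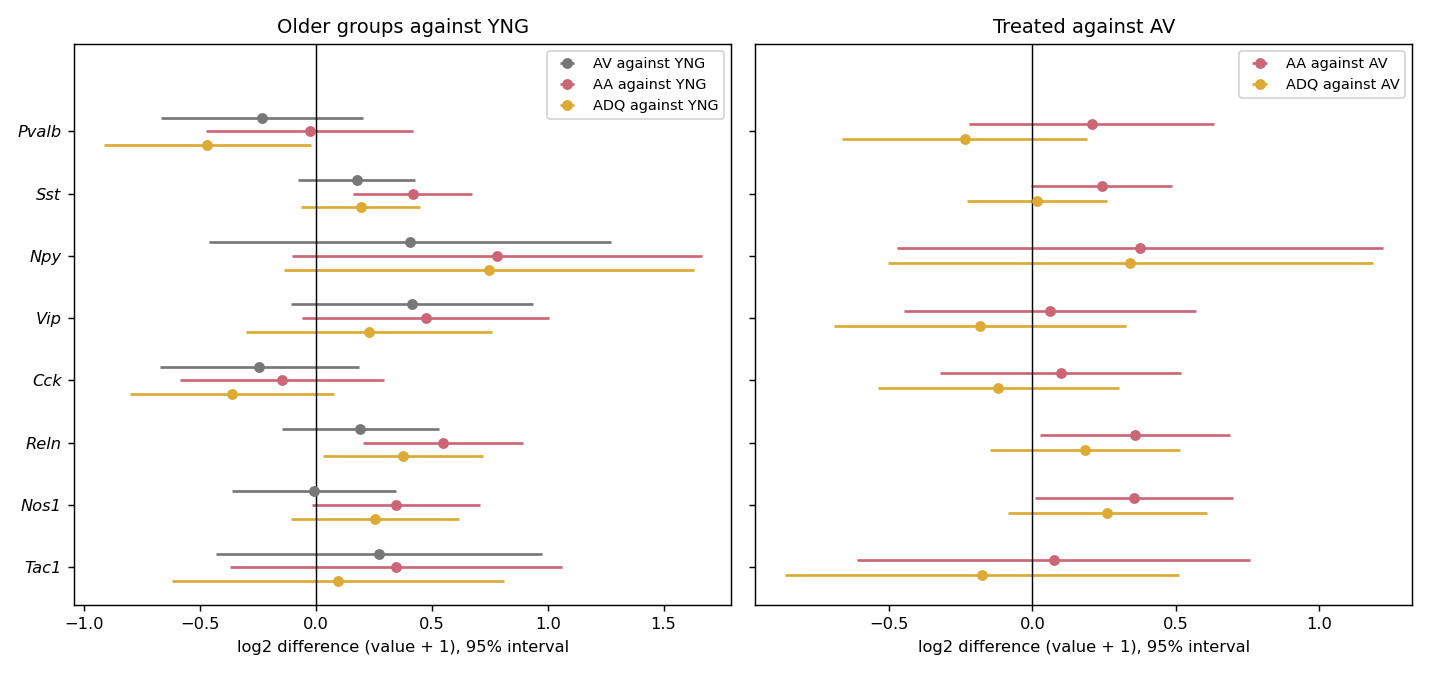
Differences of the 8 genes on the log2(value + 1) scale (horizontal), with 95% intervals from limma, for each older group against YNG (left) and each treated group against AV (right). The intervals of Reln and Sst in AA and of Reln in ADQ lie above 0 against YNG, and that of Pvalb in ADQ lies below.

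For ADQ against AV the 95% intervals show what sizes these data leave room for. The interval ran from -0.23 to 0.26 for Sst, from -0.15 to 0.51 for Reln, from -0.66 to 0.19 for Pvalb and from -0.09 to 0.61 for Nos1. It was wider for Npy, from -0.50 to 1.19, and for Tac1, from -0.86 to 0.51.

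Receptors and signaling partners of the members were listed for 29 genes. Of the 21 tested, 2 were higher and 5 lower in older rats of all treatments than in YNG, beside 15.7% and 16.7% of all genes. After adjustment 3 of these passed, a share near the 14.9% of all genes. The median difference was -0.12, beside 0.00 over all genes. Sstr2, a somatostatin receptor, fell from 674 ± 292 (SD, n = 10) in YNG to 465 ± 193 (n = 12) in AV, 420 ± 90.1 (n = 11) in AA and 358 ± 62.2 (n = 11) in ADQ. Its difference was -0.61 ± 0.16 (adjusted p = 0.0111), or -0.50 without the 3 rats (p = 0.00303). Lrp8, a reelin receptor, rose from 1309 ± 301 (SD, n = 10) in YNG to 1622 ± 310 (n = 12), 1630 ± 221 (n = 11) and 1727 ± 182 (n = 11) in AV, AA and ADQ, by 0.36 ± 0.09 (adjusted p = 0.0118). Adcyap1r1, the receptor of the Vip-related peptide PACAP, was lower by -0.19 ± 0.05 (adjusted p = 0.0171). Dab1, the adaptor that carries the reelin signal into the cell, was lower by -0.12 ± 0.05 (p = 0.0264), a call lost without the 3 rats (p = 0.0582). In AV against YNG, 1 was higher and 3 were lower, beside 10.6% and 10.7% of all genes. These were Lrp8 (0.31 ± 0.11, p = 0.00643), Adcyap1r1 (-0.21 ± 0.06, p = 0.00185), Sstr2 (-0.47 ± 0.19, p = 0.0142) and Npy1r, a receptor of neuropeptide Y (-0.30 ± 0.13, p = 0.0205). The calls of Sstr2 and Npy1r in that comparison were lost without the 3 rats (p = 0.0668 and p = 0.0505). None of the 21 passed in AA against AV or ADQ against AV.

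Genes that process peptides and build secretory granules were tested for 12 of 13 listed. In older rats of all treatments against YNG, 1 was higher and 1 was lower, below the 15.7% and 16.7% of all genes. The former was Cadps, a priming factor of dense-core vesicles (0.24 ± 0.10, p = 0.018, adjusted p = 0.0814), and the latter Chga, a granule protein (-0.27 ± 0.08, adjusted p = 0.0252). Chga was also the only one of the 12 that passed in AV against YNG, where 21.3% of all genes passed. It was lower by -0.28 ± 0.10 (p = 0.00537). In the same comparison Pcsk1, a prohormone convertase, had a difference of -0.20 ± 0.12 (p = 0.102). In ADQ against AV, 2 of 12 were higher, beside 3.42% of all genes: Cadps (0.32 ± 0.11, p = 0.00801, adjusted p = 0.386) and the granule protein Chgb (0.35 ± 0.13, p = 0.00799, adjusted p = 0.386). Chgb was 8232 ± 1528 (SD, n = 12) in AV and 10400 ± 1533 (n = 11) in ADQ.

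Of 32 other interneuron genes tested, 11 were higher and 1 was lower in older rats of all treatments than in YNG, beside 15.7% and 16.7% of all genes. After adjustment 5 passed, a share near the 14.9% of all genes. Their median difference was 0.18, beside 0.00 over all genes. Kcnc2, a potassium channel of fast-spiking cells, was higher by 0.38 ± 0.09 (adjusted p = 0.00756), and Gad2, a GABA-synthesizing enzyme, by 0.34 ± 0.09 (adjusted p = 0.0126). Gad2 was 1813 ± 292 (SD, n = 10) in YNG and 2174 ± 523 (n = 12), 2312 ± 260 (n = 11) and 2433 ± 319 (n = 11) in AV, AA and ADQ. The transcription factor Dlx2 was higher too (0.66 ± 0.18, adjusted p = 0.018), from a mean of 10.5 in YNG. In AV against YNG, 5 were higher and none lower, beside 10.6% and 10.7% of all genes, with Dlx2 (0.68 ± 0.22, p = 0.00346) and Kcnc2 (0.29 ± 0.11, p = 0.01) among them. Crhbp, a binding protein of corticotropin-releasing hormone, was higher by 0.43 ± 0.19 (p = 0.0248), a call lost without the 3 rats (p = 0.0688). In ADQ against AV, 5 of 32 were higher, beside 3.42% of all genes. Dlx6 (0.69 ± 0.27, p = 0.016, adjusted p = 0.432) and the cannabinoid receptor Cnr1 (0.23 ± 0.10, p = 0.0248, adjusted p = 0.463) passed with and without the 3 rats. Kit (p = 0.0298, adjusted p = 0.485) and Lamp5 (p = 0.03, adjusted p = 0.488) passed only with them. Dlx6 was low, with means of 7.74 in AV and 12.1 in ADQ, where genes with a mean below 5 were not tested. In AA against AV, 3 were higher, beside 1.40% of all genes, and all lost the call without the 3 rats. They were the vesicular GABA transporter Slc32a1 (0.27 ± 0.11, p = 0.0156), the calcium-binding protein gene Calb2 (0.55 ± 0.24, p = 0.0238) and the potassium channel Kcnc1 (0.23 ± 0.10, p = 0.0296).

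The 8 genes were also compared rat by rat, after the mean of each group was removed. Of 28 pairs, 10 had a Pearson correlation with an adjusted p below 0.05 by permutation within groups. Reln and Nos1 had the highest, with r = 0.77 and Spearman's rho = 0.74 (both permutation p = 1e-05, the smallest that the permutations can give, adjusted p = 9.33e-05, n = 44). It was 0.69 without the 2 rats farthest from the median of Reln, 0.69 without rat 3988, and 0.78 in series a and 0.64 in series b.

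Vip, Cck, Tac1 and Pvalb were correlated with each other in all pairs. For Vip and Tac1, r was 0.66 and rho 0.69 (permutation, both adjusted p = 9.33e-05), for Cck and Tac1 r was 0.64 and rho 0.60 (adjusted p = 9.33e-05 and 0.00056), and for Vip and Cck r was 0.58 and rho 0.60 (adjusted p = 0.00084 and 0.00056). Without the 2 rats farthest from the median of the first gene named, these were 0.61, 0.50 and 0.60. Pvalb and Cck had r = 0.62 and rho = 0.69 (permutation, adjusted p = 0.00084 and 9.33e-05), and 0.80 without the 2 rats. In series a and b they had r = 0.41 and r = 0.84. Pvalb had r = 0.41 and rho = 0.47 with Vip (permutation, adjusted p = 0.029 and 0.00943) and r = 0.39 and rho = 0.40 with Tac1 (permutation, adjusted p = 0.0436 and 0.0361), which were 0.54 and 0.57 without the 2 rats. Sst and Cck had r = 0.47 and rho = 0.35 (permutation, adjusted p = 0.0068 and 0.0571), 0.32 without the 2 rats, 0.71 in series a and 0.29 in series b. Cck and Nos1 had r = -0.41 and rho = -0.34 (permutation, adjusted p = 0.0431 and 0.065), -0.32 without the 2 rats, -0.71 in series a and -0.10 in series b. Without rat 3988, 12 pairs passed, and Pvalb went against Reln (-0.40, permutation adjusted p = 0.0383) and Nos1 (-0.39, permutation adjusted p = 0.0383), beside r = 0.09 and r = -0.07 over all 44 rats (permutation adjusted p = 0.803 and 0.845). Sst and Nos1 went in opposite directions, with r = -0.53 and rho = -0.45 (permutation, adjusted p = 0.00359 and 0.0146), -0.43 without the 2 rats, -0.55 in series a and -0.31 in series b. Npy had no pair past the adjusted threshold, and its highest r was that with Sst (0.29, permutation adjusted p = 0.0565).

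**Figure D4:**
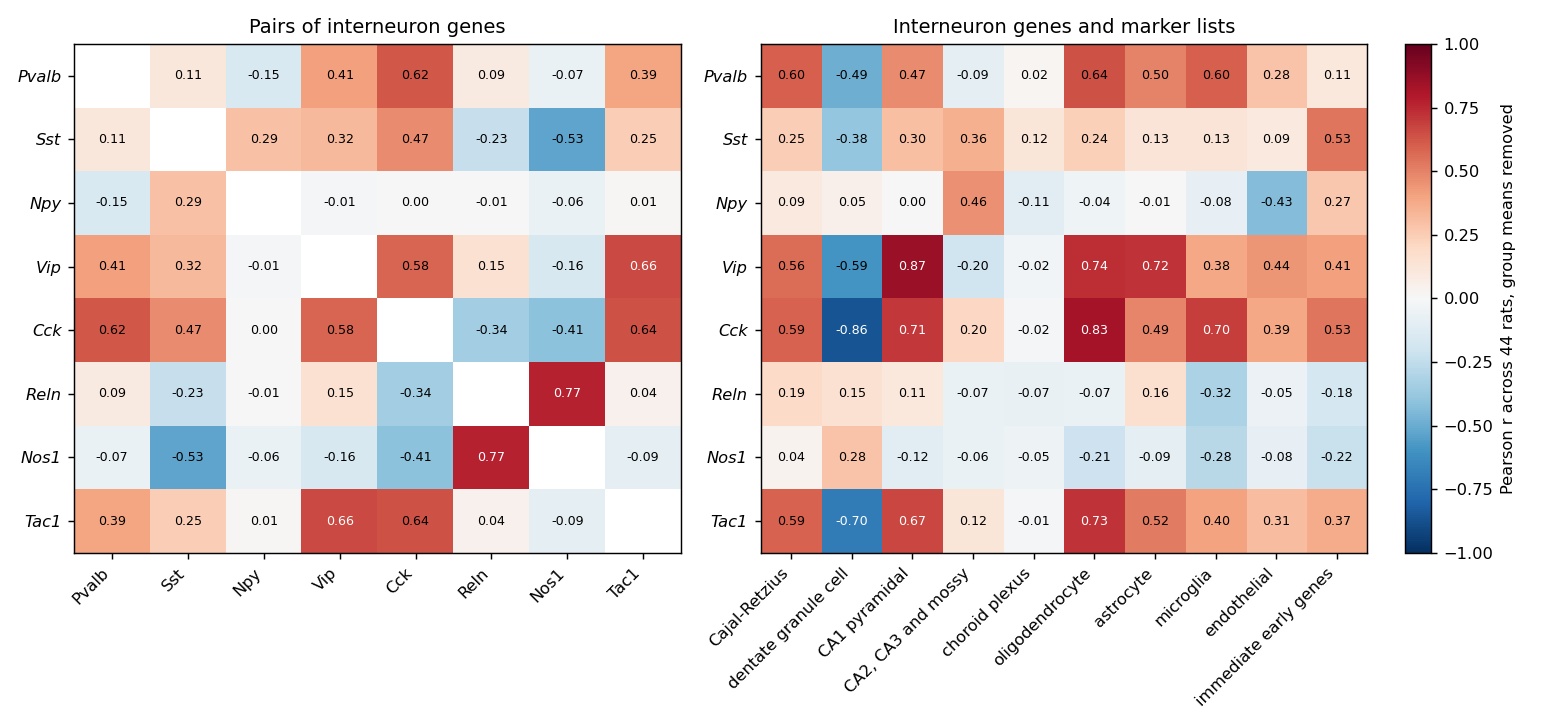
Pearson r across 44 rats after removal of group means, for pairs of the 8 genes (left) and for each gene with 10 marker lists (right), with colors from -1 (blue) to 1 (red). Reln and Nos1 stand at 0.77, and Cck stands at -0.86 with granule cell markers and at 0.83 with oligodendrocyte markers.

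The same values were set beside the mean log2 level of 10 marker lists, and 33 of 80 correlations passed after adjustment. Vip went with CA1 pyramidal markers (r = 0.87, rho = 0.87, permutation adjusted p = 8e-05 and 0.000114, 0.85 without the 2 rats farthest in the score), in series a (0.83) and in series b (0.88). Cck went against dentate granule cell markers (r = -0.86, rho = -0.83, adjusted p = 8e-05 and 0.000114 by permutation, -0.80 without the 2 rats) and with oligodendrocyte markers (r = 0.83, rho = 0.83, permutation adjusted p = 8e-05 and 0.000114, 0.81 without the 2 rats). Tac1 did likewise, with r = -0.70 and rho = -0.64 for granule cell markers and r = 0.73 and rho = 0.64 for oligodendrocyte markers (permutation, adjusted p = 8e-05 for each r and 0.000229 for each rho), which were -0.59 and 0.71 without the 2 rats. These links were shared between the genes. CA1 markers also went with Cck (r = 0.71), Tac1 (0.67) and Pvalb (0.47; permutation adjusted p = 8e-05, 8e-05 and 0.012). Vip also went with oligodendrocyte (r = 0.74) and astrocyte markers (0.72) and against granule cell markers (-0.59, permutation adjusted p = 8e-05, 8e-05 and 0.000267). Cck also went with microglia markers (r = 0.70, permutation adjusted p = 8e-05). All 8 CA1 markers tested were present in each group, with summed values of 2651 to 20216 in YNG, 2259 to 32913 in AV, 2078 to 49677 in AA and 2771 to 12898 in ADQ. Prox1, the transcription factor of granule cells, ranged from 1704 to 3630 in YNG, from 973 to 3553 in AV, from 609 to 3811 in AA and from 2344 to 3138 in ADQ. Pvalb went with oligodendrocyte markers (r = 0.64, rho = 0.75, permutation adjusted p = 0.000369 and 0.000114, 0.59 without the 2 rats, 0.76 without rat 3988) and with microglia markers (r = 0.60, rho = 0.59, permutation adjusted p = 0.000894 and 0.00065, 0.52 without the 2 rats). It went against granule cell markers (r = -0.49, rho = -0.57, permutation adjusted p = 0.0188 and 0.00141, -0.42 without the 2 rats). The summed oligodendrocyte markers were 43725 to 121530 in YNG, 56027 to 178191 in AV, 54688 to 153281 in AA and 61461 to 79510 in ADQ. The part of these cells in the levels and group differences of Pvalb, Vip, Cck and Tac1 was not tested beyond the fit with CA1 and choroid plexus terms. In that fit Pvalb lay below YNG in ADQ by -0.41 (p = 0.0463), and AA differed from ADQ in Pvalb by 0.34 (p = 0.0948).

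Nos1 had no marker list past the adjusted threshold. Reln had none by Pearson r, but went against microglia markers by rank (r = -0.32, rho = -0.44, permutation adjusted p = 0.13 and 0.0124), with r = -0.24 without the 2 rats farthest in the score. Without rat 3988 that r was -0.39 (permutation adjusted p = 0.0445), and it was -0.51 in series a and -0.35 in series b. Sst went with immediate early genes (r = 0.53, rho = 0.51, permutation adjusted p = 0.00188 and 0.0032), 0.46 without the 2 rats farthest in the score. It was 0.70 in series a and 0.37 in series b. Cck (r = 0.53), Vip (0.41), Tac1 (0.37) and Npy (0.27) also went with immediate early genes (permutation adjusted p = 0.000747, 0.0192, 0.0413 and 0.0479). In series a and b, r was 0.58 and 0.53 for Cck, 0.24 and 0.61 for Vip, 0.28 and 0.68 for Tac1, and 0.61 and 0.04 for Npy. The call of Npy was lost without rat 3988 (permutation adjusted p = 0.0595). Sst went against granule cell markers by r alone (r = -0.38, rho = -0.30, permutation adjusted p = 0.0419 and 0.108), with r = -0.09 without the 2 rats. Npy went with markers of CA2 and CA3 pyramidal and mossy cells (r = 0.46, rho = 0.47, permutation adjusted p = 0.00118 and 0.00453, 0.46 without the 2 rats). Of 7 listed Cajal-Retzius markers, 4 lay below the minimum level, so a possible contribution of these cells to Reln could be read from 2 genes alone. With these 2, Reln had r = 0.19 and rho = -0.04 (permutation adjusted p = 0.489 and 0.934), and r = -0.08 without rat 3988. Pvalb (r = 0.60), Cck (0.59), Tac1 (0.59) and Vip (0.56) did go with these 2 genes (permutation adjusted p from 0.000218 to 0.000978).

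**Figure D5:**
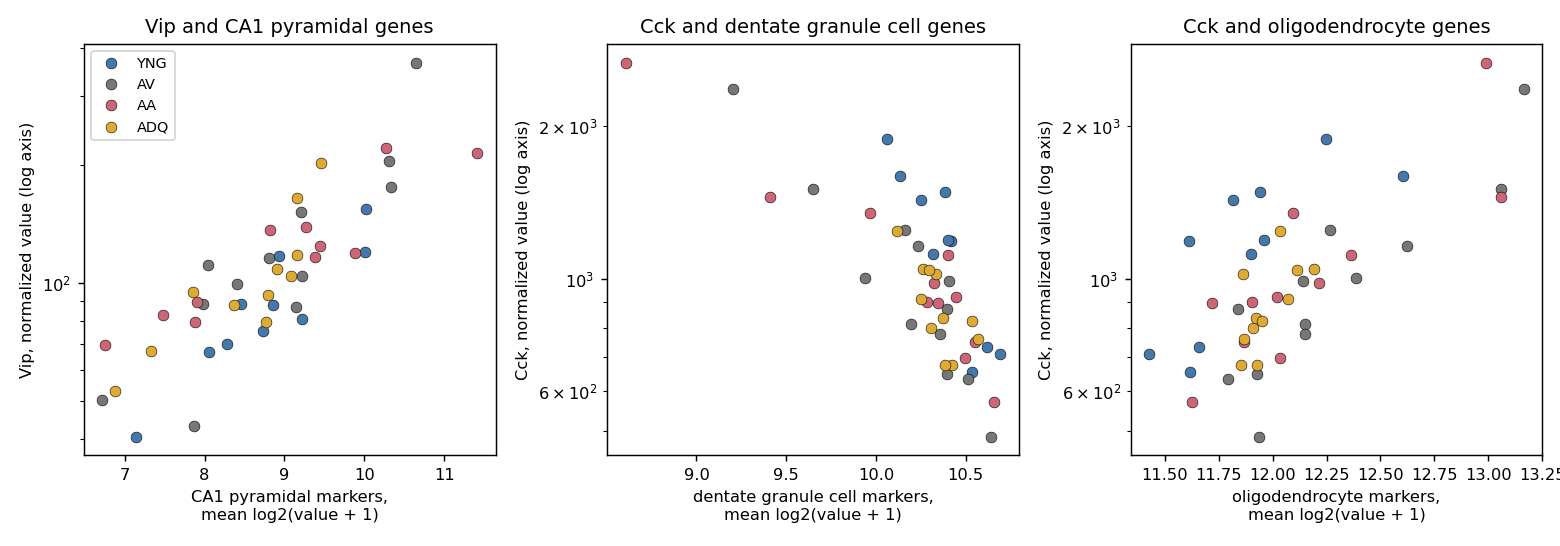
Normalized values of Vip or Cck (vertical, log axes) against the mean log2(value + 1) of CA1 pyramidal, dentate granule cell or oligodendrocyte markers (horizontal), 1 point per rat, colored by group. Vip rises with the CA1 score (r = 0.87), and Cck falls with the granule cell score (r = -0.86) and rises with the oligodendrocyte score (r = 0.83), where r is after removal of group means.

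Among 13704 genes with a mean of at least 20, the genes most like each member over the 44 rats were found by Pearson r, again after group means were removed, and are given as a description. Cck was most like Mbp (0.92), Efhd2 (0.91) and Chst8 (0.90), where Mbp encodes a myelin protein. Vip was most like Adgrl2 (0.90), Npas2 (0.88) and AABR07049886.2 (0.87). Reln was most like Fat1 (0.87), Ptch1 (0.87) and Snrk (0.84), which were 0.75, 0.83 and 0.72 without rat 3988. Nos1 was most like AABR07021812.1 (0.87), Reps2 (0.86) and Rprd2 (0.86). Pvalb was most like Tmem51 (0.84), Stard10 (0.82) and Itgb5 (0.78), and Tac1 was most like Clec11a (0.78), Far2 (0.77) and Tmem200a (0.76). The likeness was lower for Sst, with Tsen34l1 (0.72), Sncb (0.71) and Ppdpf (0.69), and for Npy, with Thy1 (0.71), Maged1 (0.67) and Eral1 (0.64).

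Over the 4 groups, 2 of the 8 genes differed between the series, beside 19.2% of all genes. Npy was lower in series b by -0.78 ± 0.28 (p = 0.00901, adjusted p = 0.105), and by -0.43 without V12 (p = 0.0206). Vip was lower in series b by -0.44 ± 0.18 (p = 0.0157, adjusted p = 0.142), with medians of 117 in series a and 88.9 in series b.

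The difference between older rats and YNG differed between the series for Nos1 (p = 0.0321) and Npy (p = 0.0428), 2 of 8 genes beside 20.3% of all genes, and the latter rests on V12.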

How the data were processed

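The authors aligned Ion reads of poly(A)-selected libraries to rn6 with STAR 2.5.3a in Partek Flow and scaled them by the median ratio. The deposited table holds signal values, that is estimated reads divided by a size factor, which are not whole reads, so no count model was used and no counting interval can be given. Labels and methods name different Ion sequencers. The 24694 rows were summed per gene identifier, and genes with a mean of at least 5 were kept (15598). With log2(value + 1), limma 3.58.1 (R 4.3.3, empirical Bayes with trend) fitted 4 groups at once. Tests were two-sided, with p-values adjusted by Benjamini-Hochberg over all genes. Correlations and single genes were also tested by permutation (100000 resamples) in Python 3.11.15. When 200 genes were changed by 1 on the log2 scale in simulated data for AV against YNG, 95.5% of these passed at p below 0.05 and 84.5% after adjustment. No columns of comparisons made by the authors were used.

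The 8 members and all gene lists were chosen with earlier results of these data known. Named genes are the members, the 4 of each list with the smallest p in AV against YNG and in older rats of all treatments against YNG, those that passed in either treatment against AV (at most 4 each), and the 3 genes most like each member. Of the genes named by this rule, 1 is not reported here. Rats 3988, 3989, 4107 and V12, the cerebellar genes, Hba-a2, Wfs1, Fibcd1 and Prox1 were singled out after the values were seen. Alternatives covered scaling, pseudocount, filter, row choice, weights, covariates, series and left-out rats.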

Additional observations from a re-analysis of the deposited data

Results flagged for a closer look

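Npy of YNG rat V12 lay far below the other YNG rats: on the log2(value + 1) scale its gap to the next rat was 0.698 of the range of the group, above Dixon's 95% critical value for 10 samples. Chance flags about 1 in 20 such groups. Its value was 2.66, and the other 9 rats of the group were at 93.3 or more.

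The difference between older rats and YNG was not equal in the 2 series for Nos1 and Npy. For Nos1 it was lower in series b than in series a by -0.62 ± 0.28 (limma interaction, p = 0.0321, adjusted p = 0.196), and p was 0.0412 without rat 3988, 0.00447 without rat 3989 and 0.0251 without V12. For Npy it was higher in series b by 1.42 ± 0.68 (p = 0.0428, adjusted p = 0.228), and without V12 it was 0.06 (p = 0.904).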

How the results depend on the processing

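The 56 gene comparisons, passed or not, had 825 alternative values and 2464 values that leave out 1 rat, and the call changed in 84 and 78 of them. No difference that passed changed sign. Some that did not pass did, such as Nos1 in AA against YNG (0.35, and -0.15 in series b). Counts of the 8 genes that passed moved as follows. In AV against YNG none passed (1651 and 1675). There 1 did with total scaling (2818 and 656), 3 with array weights (3716 and 3978) and 1 with CA1 and choroid plexus scores as terms (1709 and 1558). In series a 2 did (2365 and 2847), and in series b 1 did (588 and 396). In AA against YNG 2 passed (1959 and 2194). With total scaling 5 did (4412 and 762), with array weights 5 (3457 and 3611) and with series as a term 4 (2130 and 2351). In ADQ against YNG 2 passed (2104 and 2282), and 1 with upper quartile scaling (2529 and 1948) and 4 with array weights (3979 and 4122). In series a 0 did (1918 and 2356), and in series b 1 did (676 and 401). In older rats of all treatments against YNG 2 passed (2449 and 2609). With total scaling 4 did (4953 and 1013), with series as a term 4 (2638 and 2769) and with array weights 5 (4278 and 4382). In AA against AV 2 passed, and 0 with only the groups compared or by permutation and 1 with array weights, with the marker scores, in series a, in series b or without rats 3988, 3989 and V12, an exclusion chosen after seeing the data. In ADQ against AV 1 (Nos1) passed in series b (778 and 741), where treatment and the block of rat numbers cannot be told apart. In AA against ADQ 0 passed with the marker scores (262 and 279). Of 10 pairs of genes 2 passed in series b. Leaving out 1 rat gave 0 to 1, 2 to 4, 0 to 3, 2 to 3, 0 to 3, 0 to 0 and 0 to 2 genes in these 7 comparisons in turn, 1 for the difference between series (without 3988, 3989 or V12), and 7 to 12 pairs. Total scaling moved the median of all genes by 0.13 in older rats against YNG, where 83% of the genes that passed were then higher, against 48.4%. Array weights raised the genes that passed in AV against YNG from 1651 higher and 1675 lower to 3716 and 3978. No paired analysis was possible because the groups share no replicate numbers that mark pairs. The cause of these shifts was not tested. Tac1 is limited by its low values, and its calls in ADQ and in older rats of all treatments against YNG changed with row choice.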
